A study of Mus musculus with 6 samples.

Results

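Glutathione transferases and the antioxidant genes controlled by the transcription factor NRF2 were compared between primary and metastatic ovarian tumours grown in the same mice. Members were 37 genes listed by name: the cytosolic, mitochondrial and microsomal glutathione transferases, NRF2 and its sensor, enzymes that NRF2 induces, and 3 glutathione peroxidases. Of these, 33 were measured, out of 30142 genes tested, each on 1 probe set that the array annotation assigns to a single symbol. The other 4 (Gsta1, Gstp2, Gclm and Prdx1) lay on probe sets that carry a second symbol and were left out. No measured member had the same 6 values as another gene, although the alpha, mu and pi families hold close copies, so that a probe set may take signal from more than its named gene.

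ID8 is a mouse ovarian surface epithelial cancer line, and ID8-VEGF is its derivative that produces vascular endothelial growth factor. All tumours of both groups arose from ID8-VEGF cells placed under the bursa of the ovary and were taken at a late stage. Total RNA of fresh frozen tissue was put on whole-transcriptome arrays, 1 array per tumour, for 3 primary and 3 metastatic tumours from mice C1M3, C1M5 and C2M3. The labels used here give no mouse strain, age, metastatic site or treatment, and 1 label of the C2M3 primary tumour names mouse C2M2, where its title and donor label were followed.

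Glutathione transferases join the tripeptide glutathione to reactive molecules such as drugs, carcinogens and lipid peroxidation products, which makes these compounds soluble and ready for export. NRF2, encoded by Nfe2l2, is held in the cytoplasm by KEAP1 and broken down. Oxidants and electrophiles modify KEAP1, and NRF2 then enters the nucleus and induces glutathione synthesis, quinone reduction, the thioredoxin system and several transferases through the antioxidant response element. The pathway is known in ovarian cancer for its part in resistance to platinum drugs, which glutathione binds.

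Values are log2 intensities, and each difference is the metastatic minus the primary log2 value. The arrays had medians between 4.90 and 5.15 over the genes tested. All 10 mesothelial and ovarian surface markers, the lineage of ID8 cells, were above the level of olfactory and vomeronasal receptor genes. These receptor genes were used as a reference for genes that are not expressed. The level was the 95th percentile of their group means, 5.07 in primary and 5.58 in metastatic tumours. A gene counted as above it where its mean exceeded it in either group. All 9 measured hepatocyte markers were at or below that level, so that liver, a rich source of these enzymes, gave no marker signal above it. The mean of 11 measured adipocyte markers was 6.27, 9.52 and 11.58 in the primary tumours of C1M3, C1M5 and C2M3 and 6.47, 6.38 and 6.04 in their metastatic tumours. All 11 adipocyte markers were above the receptor level in the primary or the metastatic group, not necessarily in both. The mean of 11 macrophage markers was 6.35 in the primary tumour of C1M3 and between 7.97 and 8.81 in the other 5 tumours.

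No member passed the test between metastatic and primary tumours. With limma, the mouse as a block and Benjamini-Hochberg adjustment over all genes, 0 of 33 members had an adjusted p under 0.05, against 0.0% of all genes, and every member had an adjusted p of 0.841 or above. Without adjustment, 1485 genes had p under 0.05. These held 1 member higher in metastatic tumours (Mgst2), where 2.96% of all genes were, and 2 members lower (Gclc and Gstm7), where 1.97% were.

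The means of most members nevertheless lay lower in metastatic tumours. This was so for 24 of 33 members, against 43.9% of all genes. Among genes above the receptor level in either group the numbers were 22 of 31 members and 46.4% of genes. Nqo1 and Gstk1, both lower in metastatic tumours, passed this filter through the primary group alone, as did Gsto1. The filter is tied to the direction for such genes, so it adds no support to the count. The median difference of the members was -0.16, against 0.02 over all genes, and was -0.08 without mouse C2M3 or without its metastatic tumour alone. Where a single tumour is left out, the difference is that of group means without pairing by mouse. Within mice the median was 0.03 in C1M3, -0.16 in C1M5 and -0.19 in C2M3. Centring each array on its median moved the median of all genes by -0.11, and then 29 of 33 members and 69.6% of all genes had a lower mean. The difference had 1 sign in all 3 mice for 10 members: 6 lower (Gclc, Gstm7, Nqo1, Srxn1, Gstm5 and Gstz1), where 8.64% of all genes were, and 4 higher (Gstp3, Gstp1, Mgst2 and Gsta2), where 11.1% were. The groups did not overlap for Gstm7 and Gstz1, both lower in metastatic tumours, where 2.84% of all genes were, and for no member in the other direction, where 4.79% were. With centred arrays the sign was shared by 9 lower members (19.6% of all genes), which included Gclc, Gstm7, Srxn1 and Gstm5 but not Nqo1 or Gstz1. It was shared by 1 higher member, Gstp3 (5.84% of all genes). The groups then did not overlap for 2 lower members, Gstm7 and Srxn1, where 10.3% of all genes were, and for 0 higher members, where 2.16% were. With 3 animals a group, these counts describe the tumours measured.

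**Figure D1:**
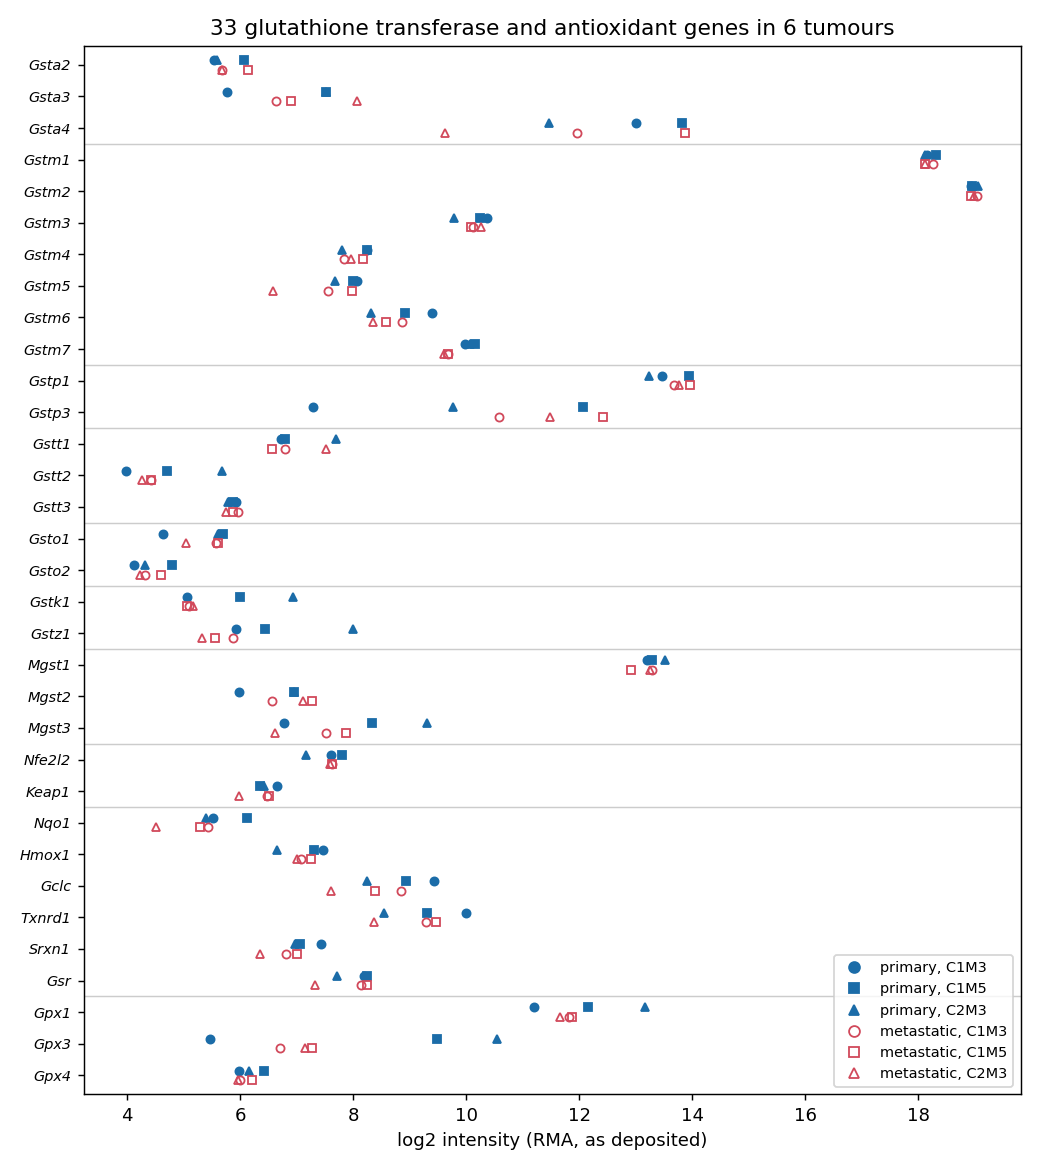
Log2 intensity (horizontal axis) of the 33 measured members (rows, grouped by class with grey lines between classes) in each of the 6 tumours, with filled symbols for primary, open symbols for metastatic tumours and 1 symbol shape per mouse. Gstp3, Gpx3 and Gsta4 spread over more than 4 units, while Gstm1 and Gstm2 stay within 0.19 and 0.13.

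**Figure D2:**
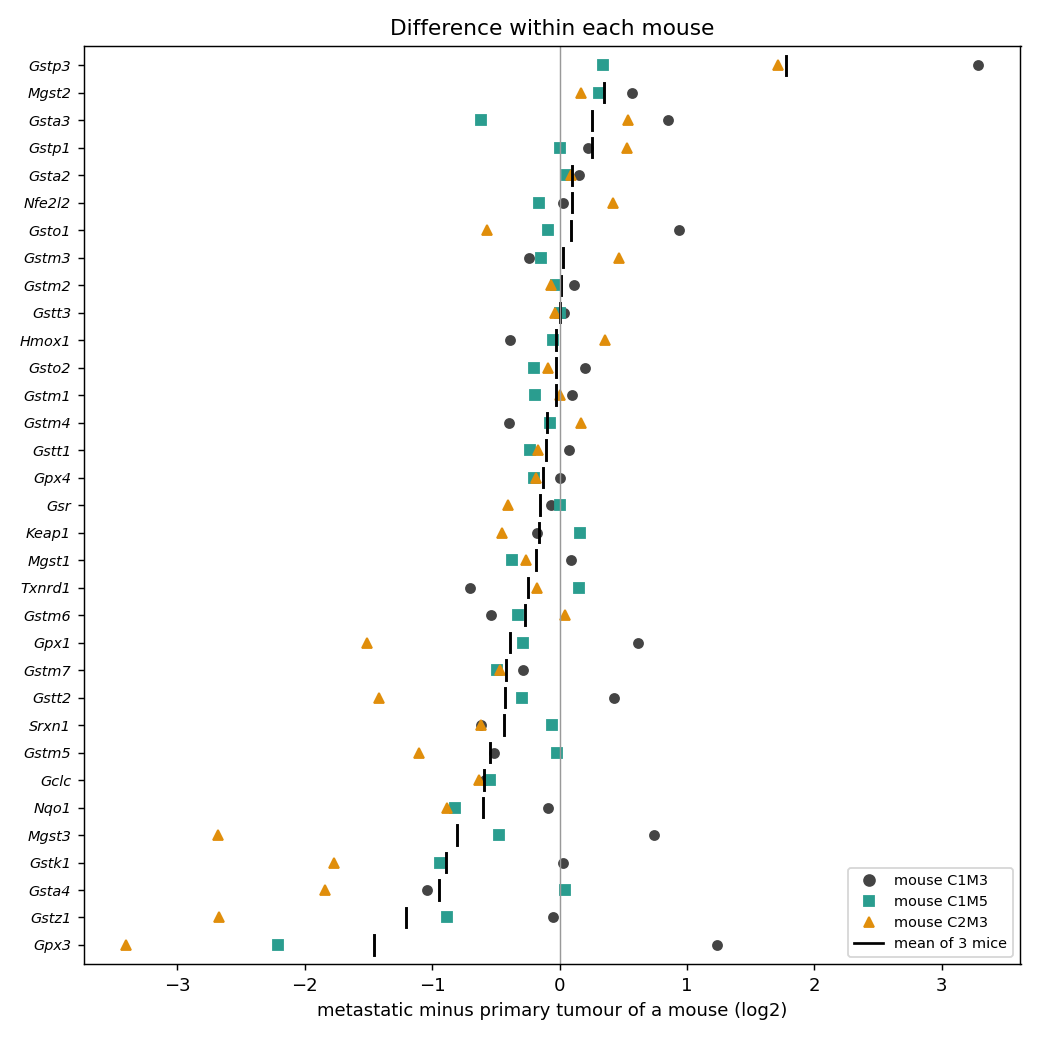
Difference between the metastatic and the primary tumour of each mouse (log2, horizontal axis) for the 33 members, ordered by the mean of the 3 mice (black bars). Gstp3 is at the top with a mean of 1.78 and Gpx3 at the bottom with -1.46, and the 3 mice lie together for Gclc and far apart for Gpx3, Mgst3 and Gstz1.

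The regulators had small mean differences. Nfe2l2 (Entrez Gene 18024), which encodes NRF2, read 7.60, 7.80 and 7.17 in the C1M3, C1M5 and C2M3 primaries and 7.63, 7.63 and 7.60 in the metastases of these mice, differing by 0.10 (SE 0.15). The primary tumour of C2M3 was the low array and the groups overlapped. The difference was -0.01 with the arrays centred and -0.08 without the primary tumour of C2M3. Keap1 (Entrez Gene 50868), which encodes the sensor that targets NRF2 for breakdown, had primary values of 6.65, 6.35 and 6.43 against metastatic values of 6.47, 6.51 and 5.97, differing by -0.16 (SE 0.15). Its low array was the metastatic tumour of C2M3. NRF2 is controlled mainly at the protein level, which these arrays do not measure.

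Gclc had the most even difference of the NRF2-induced enzymes. All 6 measured enzymes of this group had their lower mean in metastases, the median difference being -0.34 against 0.02 over all genes, and 0 of 6 passed the test. Gclc (Entrez Gene 14629) encodes the catalytic subunit of glutamate-cysteine ligase, the rate-limiting step of glutathione synthesis. For C1M3, C1M5 and C2M3 in turn it read 9.43, 8.94 and 8.25 in primaries and 8.84, 8.39 and 7.62 in metastases. Each metastatic tumour lay below the primary tumour of its mouse, by differences of -0.59, -0.55 and -0.64, while the groups overlapped. Group means were 8.87 ± 0.59 in primaries and 8.28 ± 0.62 in metastases (SD, n = 3 each). The mean difference was -0.59 (SE 0.05), with an unadjusted p of 0.00144 and an adjusted p of 0.841 in limma. Leaving out the C2M3 metastasis gave -0.26, and leaving out the C2M3 primary gave -0.90. A mean of 9 cell cycle markers lay at 8.89, 7.55 and 7.28 in primary and 7.77, 7.65 and 6.67 in metastatic tumours. It was highest and lowest in the same arrays as Gclc, but in C1M5 it was not lower in the metastatic tumour, as Gclc was. The part of the cell cycle in the Gclc values was not tested.

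Nqo1 and Srxn1 were also lower in each metastasis than in its primary, by uneven amounts. Nqo1 (Entrez Gene 18104), which encodes the quinone reductase most used as a readout of NRF2 activity, had primary values of 5.53, 6.12 and 5.40 against metastatic values of 5.43, 5.30 and 4.51. Its difference was -0.60 (SE 0.21, adjusted p = 0.841 in limma), with -0.09 in C1M3, -0.82 in C1M5 and -0.89 in C2M3. The C1M3 tumours were nearly level, the groups overlapped, and without the metastatic tumour of C2M3 the difference was -0.31. The metastatic mean of Nqo1, 5.08, was below the receptor level of that group (5.58), so background may limit the size of its difference. Srxn1 (Entrez Gene 76650) encodes sulfiredoxin, which repairs oxidised peroxiredoxins. It had primary values of 7.43, 7.06 and 6.97 against metastatic values of 6.81, 7.0 and 6.36, differing by -0.43 (SE 0.16), with the tumours of C1M5 apart by only -0.06. It was -0.25 without the metastatic tumour of C2M3.

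Hmox1 (Entrez Gene 15368), which encodes the haem-degrading enzyme heme oxygenase, showed no common direction. It had primary values of 7.46, 7.31 and 6.65 against metastatic values of 7.07, 7.26 and 7.01, differing by -0.03 (SE 0.18), negative in C1M3 and C1M5 and positive in C2M3. Txnrd1, which encodes the cytosolic thioredoxin reductase, ranged from 8.37 to 9.997, with differences of -0.71, 0.15 and -0.18 in C1M3, C1M5 and C2M3. Gsr, which encodes glutathione reductase, the enzyme that restores reduced glutathione, differed by -0.16 (SE 0.11).

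Among transferases, the pi class held the widest difference. Gstp1 (Entrez Gene 14870) encodes the main pi class enzyme, which is abundant in many tumours. For C1M3, C1M5 and C2M3 in turn it read 13.46, 13.95 and 13.24 in primaries and 13.69, 13.96 and 13.77 in metastases, differing by 0.25 (SE 0.13), or 0.10 with the C2M3 primary left out. Gstp3 (Entrez Gene 225884), a paralogue in the same gene cluster, had primary values of 7.29, 12.08 and 9.78 against metastatic values of 10.58, 12.42 and 11.49. The primary tumour of C1M3 was the low array, both tumours of C1M5 were the high ones, and the groups overlapped. The difference was 1.78 (SE 0.69, adjusted p = 0.841 in limma), or 3.43-fold, made up of 3.28 in C1M3, 0.34 in C1M5 and 1.72 in C2M3. Leaving out a tumour or a mouse moved it between 0.57 and 2.96, the lowest without the primary tumour of C1M3 and the highest without that of C1M5. A mean difference of at least 2-fold upward was found in this 1 member, and in 1.61% of all genes. The mesothelial and ovarian surface marker mean was 10.76, 12.53 and 11.32 in primary and 10.69, 12.74 and 11.39 in metastatic tumours, also highest in C1M5. The low Gstp3 array, the primary tumour of C1M3, was also the low array of the macrophage (6.35) and fibroblast (6.87) marker means. The smooth muscle, T and NK cell, and B and plasma cell marker means were lowest there as well. The part of any of these cells was not tested.

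The promoters of the pi class genes are shown because Gstp1 and Gstp3, although neighbours, had unlike spreads. They are 150 bases before the start site from RefSeq on GRCm38.p6, with Gstp1 at chr19:4037913-4038062 and Gstp3 at chr19:4059448-4059597, both on the minus strand and written 5′ to 3′. Capitals mark a match to TGANTCAGC, the core of an antioxidant response element of the type bound by NRF2 with small MAF proteins. The first bases of this motif, TGANTCA, are also the letters of an AP-1 site, so that the match does not tell these factors apart.
Gstp1: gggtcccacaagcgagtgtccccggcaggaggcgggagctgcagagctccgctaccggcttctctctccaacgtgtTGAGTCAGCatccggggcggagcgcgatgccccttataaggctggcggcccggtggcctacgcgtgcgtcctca
Gstp3: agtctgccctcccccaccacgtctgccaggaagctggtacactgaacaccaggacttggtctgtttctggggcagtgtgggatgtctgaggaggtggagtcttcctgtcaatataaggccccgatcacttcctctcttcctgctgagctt

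The Gstp1 match begins 74 bases before the start site, and Gstp3 had none in the window of 300 bases searched (250 before to 50 after the start site, both strands). Over all 32851 such windows, 1.19% held TGANTCAGC. The 32 members with a promoter in the table had 46 windows, of which 4 held it, 1 each for Gstp1, Gstp2, Srxn1 and Prdx1. The looser form TGACNNNGC, which some matches of the first motif also fulfil, was found in 12.4% of all windows and in 9 of the 46, among them those of Gstm7, Gclm and Nfe2l2. A match is a description of the letters only. The Srxn1 match, 45 bases before the start site, is shown for comparison, on the plus strand at chr2:152105374-152105523.
Srxn1: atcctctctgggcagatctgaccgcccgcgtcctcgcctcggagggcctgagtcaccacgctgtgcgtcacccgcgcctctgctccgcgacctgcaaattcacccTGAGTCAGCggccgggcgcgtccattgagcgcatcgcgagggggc

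**Figure D3:**
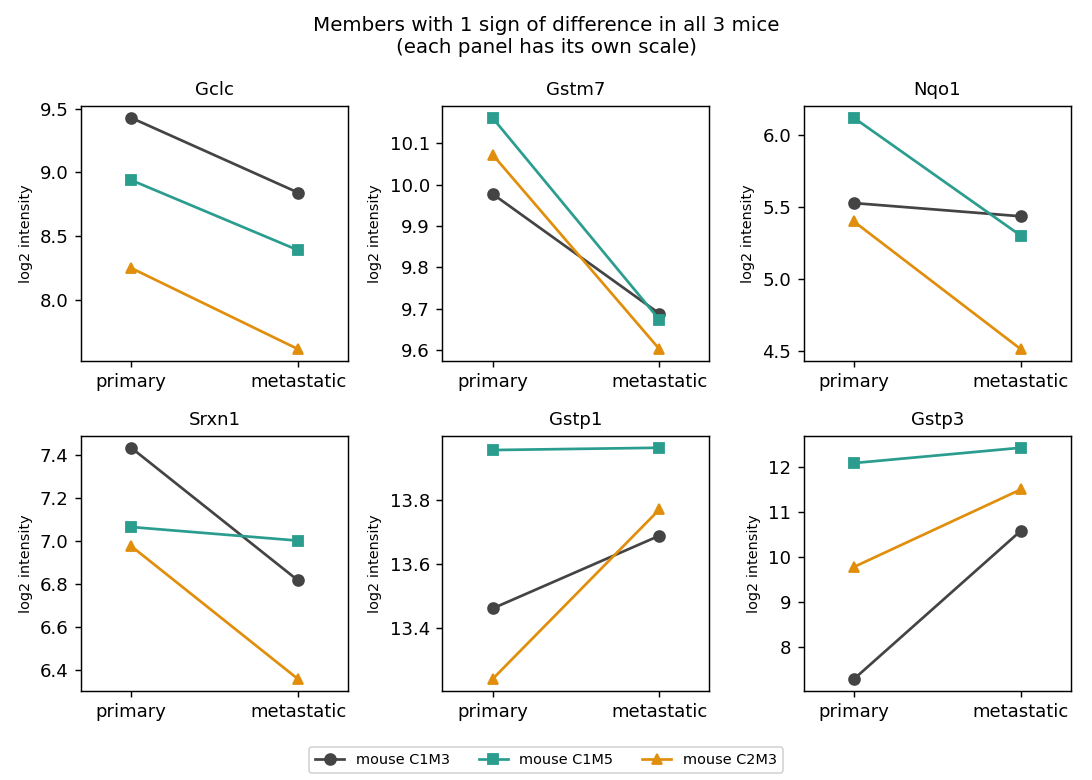
Log2 intensity (vertical axis, a separate scale in each panel) of 6 members whose difference had 1 sign in all 3 mice, with 1 line per mouse from its primary to its metastatic tumour. The 3 lines of Gclc run parallel with differences of -0.59, -0.55 and -0.64, those of Gstm7 end below all primary tumours, and the Gstp3 lines start as far apart as 7.29 and 12.08.

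Of the 7 mu class genes, 5 had their lower mean in metastases, the median difference being -0.10, and 0 passed the test. Gstm1 and Gstm2, which encode the major mu enzymes, were nearly level across tumours. Gstm1 lay between 18.12 and 18.31 and Gstm2 between 18.93 and 19.06 in the 6 arrays. These values are close to the highest in the whole data set, 19.89, and whether such spots were saturated is not known from the values used here. Gstm7 (Entrez Gene 68312) had primary values of 9.98, 10.16 and 10.07 against metastatic values of 9.69, 9.67 and 9.60. Every metastatic tumour lay below every primary tumour, and the difference was -0.42 (SE 0.07, unadjusted p = 0.00947, adjusted p = 0.841 in limma). Gstm5 (Entrez Gene 14866) had primary values of 8.07, 8.0 and 7.68 against metastatic values of 7.56, 7.98 and 6.58, differing by -0.54 (SE 0.26), with the tumours of C1M5 level at -0.02 and the metastatic tumour of C2M3 the low array, without which the difference was -0.15. The other 3 mu genes, Gstm3, Gstm4 and Gstm6, differed by 0.03 (-0.08 with centred arrays), -0.10 and -0.27. With the arrays centred, 7 of 7 mu genes had a lower mean, as did 69.6% of all genes. Gstm6 differed by -0.01 without the primary tumour of C1M3 and by -0.56 without that of C2M3.

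Gsta4 was high in both tumours of C1M5 and low in both tumours of C2M3. It encodes the alpha class enzyme specialised for 4-hydroxynonenal, a product of lipid peroxidation (Entrez Gene 14860). For C1M3, C1M5 and C2M3 in turn it read 13.01, 13.82 and 11.47 in primaries and 11.97, 13.87 and 9.64 in metastases. The groups overlapped. The difference was -0.95 (SE 0.45, adjusted p = 0.841 in limma), and it was 0.15 without the metastatic tumour of C2M3. The other alpha genes had small mean differences, 0.10 for Gsta2, positive in every mouse but -0.01 on average with centred arrays, and 0.26 for Gsta3, which ranged from 5.77 to 8.06 and was negative in C1M5 alone.

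Gpx3, Gstz1, Gstk1, Mgst3, Gpx1 and Gstt2 shared an order of tumours, with the primary tumour of C2M3 highest and that of C1M5 next. This order held for 6 of 33 members and 3.17% of all genes. It was noticed after the values were seen. It is also the order of the adipocyte marker mean, which was 11.58 and 9.52 in those tumours and at most 6.47 in the other 4, and the part of fat cells in these members was not tested. The mean of the smooth muscle markers was also highest in those tumours, at 8.17 and 7.44, and at most 6.61 elsewhere. In RNA of a whole tumour, fewer cells of a type and less RNA per cell cannot be told apart.

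Gpx3 (Entrez Gene 14778) encodes the secreted plasma glutathione peroxidase, which fat tissue also makes. For C1M3, C1M5 and C2M3 in turn it read 5.47, 9.48 and 10.56 in primaries and 6.71, 7.27 and 7.15 in metastases. The metastatic tumours lay close together, inside the wide range of the primary tumours. The mean difference of -1.46 (SE 1.13, adjusted p = 0.841 in limma) combined 1.24 in C1M3 with -2.21 in C1M5 and -3.40 in C2M3. Gpx1 (Entrez Gene 14775), which encodes the intracellular peroxidase, followed it with primary values of 11.20, 12.16 and 13.17 against metastatic values of 11.82, 11.88 and 11.67, differing by -0.39 (SE 0.50), or 0.17 without mouse C2M3. Gpx4, which encodes the peroxidase that protects membrane lipids and restrains ferroptosis, ranged only from 5.97 to 6.42 and differed by -0.13 (SE 0.07).

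Gstz1 (Entrez Gene 14874) encodes the zeta class enzyme, a maleylacetoacetate isomerase of tyrosine breakdown. It had primary values of 5.92, 6.44 and 8.01 against metastatic values of 5.87, 5.56 and 5.33, and the groups did not overlap, by a margin of only 0.05 within C1M3. The difference was -1.20 (SE 0.63, adjusted p = 0.841 in limma), with -0.89 in C1M5 and -2.67 in C2M3. Gstk1 (Entrez Gene 76263), which encodes the kappa class enzyme of mitochondria and peroxisomes, had primary values of 5.06, 6.0 and 6.93 against metastatic values of 5.09, 5.06 and 5.16, differing by -0.89 (SE 0.42), or -0.43 with the C2M3 primary left out. The primary tumour of C1M3 lay with the metastatic tumours. The metastatic mean of Gstk1, 5.10, was below the receptor level of that group (5.58), and that of Gstz1, 5.59, lay close to it. Background may therefore limit the sizes of both differences. A mean difference of at least 2-fold downward was found for Gpx3 and Gstz1, and for 0.567% of all genes. Neither reached 2-fold without the primary tumour of C2M3, where Gpx3 differed by -0.43 and Gstz1 by -0.60, and Gpx3 differed by -0.97 without that of C1M5. Without mouse C2M3 the differences were -0.49 and -0.47.

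**Figure D4:**
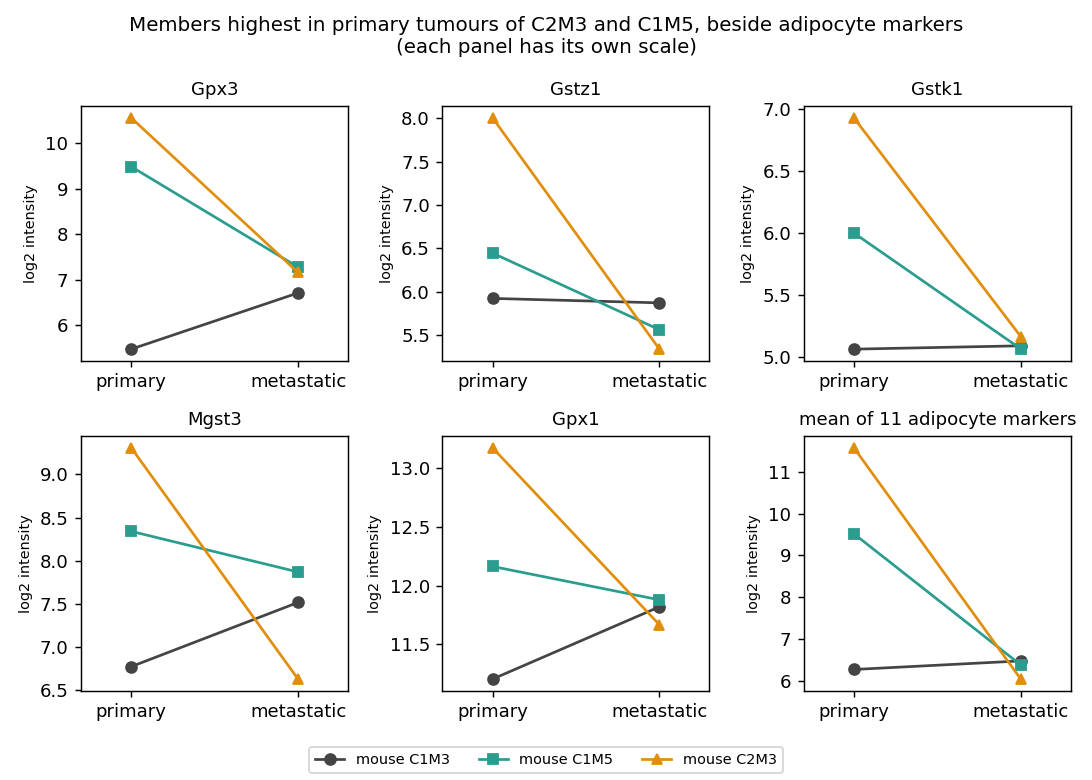
Log2 intensity (vertical axis, a separate scale in each panel) of 5 members and of the mean of 11 adipocyte markers, with 1 line per mouse from its primary to its metastatic tumour. In every panel the primary tumours of C2M3 and C1M5 are the highest, and the adipocyte marker mean is 11.58 and 9.52 there.

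The microsomal transferases are membrane proteins, of which MGST1 detoxifies lipid peroxides and MGST2 and MGST3 are related to leukotriene C4 synthase. Mgst3 (Entrez Gene 66447) had primary values of 6.77, 8.34 and 9.31 against metastatic values of 7.52, 7.87 and 6.63. Its difference of -0.80 (SE 0.81) was 0.14 without mouse C2M3. Mgst2 (Entrez Gene 211666) had primary values of 5.99, 6.96 and 6.96 against metastatic values of 6.56, 7.27 and 7.12, higher in each metastasis by 0.57, 0.31 and 0.16, although the groups overlapped. The difference was 0.35 (SE 0.11, unadjusted p = 0.0477, adjusted p = 0.841 in limma), and it was 0.03 without the primary tumour of C1M3. Its low array, the primary tumour of C1M3, was also the low array of the macrophage marker mean (6.35). The marker means of fibroblasts (6.87), smooth muscle (6.07), T and NK cells (4.68) and B and plasma cells (4.53) were lowest there too. The part of any of these cells was not tested. Mgst1 stayed between 12.91 and 13.51 and differed by -0.18 (SE 0.12).

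The theta and omega classes included the dimmest members. Gstt2 and Gsto2 were at the level of the receptor genes in both groups, as were 51.1% of all genes, so that their values carry little information. In metastatic tumours alone, the means of Gsto1 (5.41), Gstk1 (5.10) and Nqo1 (5.08) were also below that level (5.58). Gstt2 (Entrez Gene 14872) had primary values of 3.99, 4.71 and 5.67 against metastatic values of 4.42, 4.42 and 4.26, differing by -0.43 (SE 0.44), or 0.07 without mouse C2M3. Gstt1, which encodes the theta enzyme that acts on small halogenated molecules, differed by -0.11 (SE 0.09) and was highest in both tumours of C2M3, at 7.69 and 7.52. Gstt3 lay between 5.75 and 5.96. Gsto1, whose product reduces dehydroascorbate, ranged from 4.64 to 5.70, with differences of 0.94 in C1M3 and -0.57 in C2M3.

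Other genes of the pathway, in lists that leave out the members, had medians near that of all genes (0.02), and 0 of their genes passed the test in either direction. Slc7a11 and Sqstm1 each stood in a pair of these lists. Of 16 measured genes of glutathione synthesis, turnover and glutaredoxins, 8 had a lower and 8 a higher mean, with a median of -0.02. Glrx5, which encodes a mitochondrial glutaredoxin of iron-sulfur cluster assembly, had primary values of 10.81, 10.70 and 10.77 against metastatic values of 10.39, 9.97 and 9.71, without overlap (difference -0.74, SE 0.16, adjusted p = 0.841 in limma). Dpep1, a dipeptidase that breaks down glutathione products, differed by -1.06 (SE 0.69) and the peptidase gene Anpep by -0.57 (SE 0.60), both positive in C1M3 and negative in the other mice.

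Among 19 measured peroxide, superoxide and thioredoxin enzymes, 9 had a lower mean, with a median of 0.00. Cat, which encodes catalase, ranged from 10.15 in the metastatic tumour of C2M3 to 14.67 in its primary tumour and differed by -2.42 (SE 0.98). The difference was -0.35 in C1M3, -2.38 in C1M5 and -4.52 in C2M3. The groups did not overlap, as for 2.84% of all genes in this direction. Its 2 highest values were in the primary tumours rich in adipocyte markers. Sod3, which encodes extracellular superoxide dismutase, differed by -0.55 (SE 0.12) and was also lower in every mouse, although its groups overlapped. Msrb1, a methionine sulfoxide reductase gene, differed by -0.43 (SE 0.21).

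A set of 24 further measured NRF2-induced genes had 11 lower and 13 higher means and a median of 0.02, where the 6 measured enzymes among the members had -0.34. Their widest differences were 0.44 (SE 0.19) for Aldh3a1, an aldehyde dehydrogenase gene, 0.37 (SE 0.32) for the epoxide hydrolase gene Ephx1 and -0.33 (SE 0.17) for Pgd, an enzyme gene of the pentose phosphate pathway. Of 13 relatives, partners and regulators of NRF2, 6 had a lower mean and the median was 0.06. There the related factor gene Nfe2l3 differed by 0.39 (SE 0.18), the kinase gene Gsk3b by -0.32 (SE 0.20) and the small MAF gene Mafg by 0.20 (SE 0.10). Of 11 other genes of the transferase superfamily or related membrane proteins, 4 had a lower mean and the median was 0.01. Alox5ap differed by 0.40 (SE 0.49), Hpgds, which encodes a prostaglandin D synthase, by 0.37 (SE 0.16) and the chloride channel gene Clic1 by -0.31 (SE 0.07), the last lower in every mouse. With the arrays centred, which lowered the median of all genes to -0.09, the genes with a lower mean were 14 of 16 in the glutathione list, 15 of 19 among peroxide, superoxide and thioredoxin enzymes, 14 of 24 further NRF2-induced genes, 9 of 13 relatives and regulators and 8 of 11 other superfamily genes, against 69.6% of all genes.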

How the data were processed

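The values analysed were the log2 intensities that the authors deposited for each probe set, 1 column per array. Per the submitters' processing notes they were made with RMA and Transcriptome Analysis Console. Versions and genome build are not given in the sources used here. Control probe sets (6732) were left out. Of 65956 others, 30604 carried 1 distinct symbol, and the brightest probe set by mean represented each of 30142 genes, without a filter on dim genes. Symbols of 827 probe sets were updated through a RefSeq table of GRCm38.p6.

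The comparison of metastases with primaries used limma 3.58.1 (R 4.3.3) with tissue and mouse as terms. Tests were two-sided, p-values were adjusted over all genes by Benjamini-Hochberg, and the threshold was 0.05. The fit was also run on simulated data with known changes. How many of those changes passed the threshold is not reported here, so the power of the test is not given. Pairing follows from the donor label, which gives both tumours of an animal the same mouse. Across genes, the deviations from group means of a mouse's own tumours had r = -0.05 in C1M3, 0.35 in C1M5 and 0.07 in C2M3. The number of arrays limits the precision.

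Values in all arrays are given for the 12 members with the widest differences and for Nfe2l2, Keap1, Nqo1, Hmox1 and Gclc. For each pathway list the 3 genes with the widest differences are named, and other genes were chosen as examples. Members and lists were chosen with earlier results of these data known. Alternatives were the fit without the block, left-out mice and arrays, centring, a filter on dim genes, averaged probe sets, an intensity trend and array weights.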

Additional observations from a re-analysis of the deposited data

How the results depend on the processing

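Under each of 15 alternatives, 0 genes and 0 members passed the test (limma), with between 679 and 5261 genes at an unadjusted p under 0.05. The median difference of the members lay between -0.26 and -0.08, and 19 to 29 members had a lower mean. Without the replicate block the differences are the same, and the median was again -0.16 with 0 members called. The sign held in every alternative for 14 members, among them Gclc (-0.90 to -0.26), Gstm7, Nqo1, Srxn1, Gstz1 and Gstp3. The fit without the block, the intensity trend, the filter on dim genes and averaged probe sets cannot change a member's difference. Those alternatives therefore do not test its sign. The adjusted p of members reached no lower than 0.278. The other 19 members changed sign in at least 1 alternative, and the cause was not tested. Across left-out tumours and mice the ranges were -0.90 to 0.17 for Gpx1, -0.33 to 0.14 for Gsr, -0.050 to 0.27 for Gsta2, -0.32 to 0.69 for Gsta3, -1.97 to 0.15 for Gsta4, -0.10 to 0.051 for Gstm1, -0.046 to 0.047 for Gstm2, -0.19 to 0.16 for Gstm3, -0.25 to 0.048 for Gstm4, -0.33 to 0.42 for Gsto1 and -0.17 to 0.16 for Gsto2. They were -0.39 to 0.20 for Gstt1, -0.85 to 0.068 for Gstt2, -0.051 to 0.054 for Gstt3, -0.27 to 0.15 for Hmox1, -0.32 to 0.013 for Keap1, -1.58 to 0.14 for Mgst3, -0.080 to 0.23 for Nfe2l2 and -0.61 to 0.11 for Txnrd1. With centred arrays the sign turned for Gsta2 (-0.0070), Gstm2 (-0.097), Gstm3 (-0.079), Gsto1 (-0.013) and Nfe2l2 (-0.0098). With array weights it turned for Gsta3 (-0.27), Gstm2 (-0.023), Gstm3 (-0.030), Gsto1 (-0.10), Hmox1 (0.0044), Txnrd1 (0.017), Nfe2l2 (-0.030) and Keap1 (0.0062). Members at the level of the receptor genes are limited by signal over background.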
